A study of Mus musculus with 2 samples.

Results

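The 6 miRNA genes of the mouse Hox clusters, Mir10a, Mir10b, Mir615, Mir196b, Mir196a-2 and Mir196a-1, were described among the 2202 miRNA genes counted in the adrenal gland. They were chosen by position, as the named miRNA hairpins inside the Hoxa, Hoxb, Hoxc and Hoxd clusters. The study sequenced miRNAs of the adrenal gland from females of B6CASTF1/J, a first-generation hybrid of mouse strains, aged 2 months. Its labels give 1 group of 2 biological replicates, with no treatment, no engineered allele and no control group. The tissue labels number different females, while a single donor label is given for the pair. The spread and the p-values given here may therefore be technical.

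Hox genes encode transcription factors that give body segments their identity along the head-to-tail axis. Within a cluster they are arranged in the order of the regions where they act, and the posterior genes stand upstream. miR-10 hairpins lie just upstream of the Hox4 genes and miR-196 hairpins lie upstream of Hox9 genes. A miRNA represses mRNAs that pair with its seed, bases 2 to 8 of the mature strand. In mouse embryos miR-196 is known to direct cleavage of the Hoxb8 mRNA, and miR-10 miRNAs are known to repress several Hox mRNAs.

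The mature sequences are shown because they decide both the seed of each member and which reads can be assigned to it. They are from RefSeq (GRCm38.p6), written 5′ to 3′ with the seed in capitals. Of the members, 6 of 6 matched the RefSeq table by symbol for their mature strands. The 5′ strand of miR-196a is the same for both of its genes.
miR-10a-5p: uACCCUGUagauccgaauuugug
miR-10b-5p: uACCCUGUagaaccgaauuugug
miR-196a-5p: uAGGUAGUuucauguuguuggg
miR-196b-5p: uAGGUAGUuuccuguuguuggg
miR-615-5p: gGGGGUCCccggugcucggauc
miR-615-3p: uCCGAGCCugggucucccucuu

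The 5′ strands of miR-10 and miR-196 formed 1 seed group each. The seed ACCCUGU was held by miR-10a-5p and miR-10b-5p and by no other of the 1679 mature names in the RefSeq table. The seed AGGUAGU was likewise held by miR-196a-5p and miR-196b-5p alone. The 3′ and 5′ strands of miR-615 each had a seed that no other mature name shared. Counted from 1 at the 5′ end of the name given first, miR-10a-5p and miR-10b-5p differed by the substitution U12A. Between miR-196a-5p and miR-196b-5p the substitution was A12C. Both differences lie outside the seed.

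Reads with several alignments were set apart in a row of their own and given to no gene, so shared sequence limits a count. Among the members, runs of 18 bases that also occur in another annotated hairpin were found in Mir196a-1 and Mir196a-2 alone, and each shared them with the other. Their longest common run was 22 bases, which is the mature strand itself. In capitals below is that mature strand within the RefSeq hairpin, and the bases beside it are the nearest that tell the genes apart.
Mir196a-1 hairpin (chr11:96265164-96265265, plus strand): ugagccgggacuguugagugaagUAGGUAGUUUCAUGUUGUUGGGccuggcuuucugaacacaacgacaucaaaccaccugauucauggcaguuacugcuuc
Mir196a-2 hairpin (chr15:102973350-102973434, plus strand): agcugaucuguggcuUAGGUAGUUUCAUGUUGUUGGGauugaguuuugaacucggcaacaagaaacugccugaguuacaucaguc
A read that lies within the capitals fits both hairpins exactly. What can be assigned to Mir196a-1 or Mir196a-2 is a read that reaches past the shared strand or comes from the 3′ strand. The longest run that their 3′ strands had in common was 5 bases. The counts of these genes are therefore no measure of mature miR-196a.

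The other 4 members held no such run at 18, 20 or 22 bases. The Mir10a and Mir10b hairpins, shown with the mature 5′ strand in capitals, had 15 bases as their longest common run.
Mir10a hairpin (chr11:96317165-96317274, plus strand): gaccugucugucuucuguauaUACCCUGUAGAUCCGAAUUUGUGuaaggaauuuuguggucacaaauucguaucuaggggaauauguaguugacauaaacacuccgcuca
Mir10b hairpin (chr2:74726070-74726137, plus strand): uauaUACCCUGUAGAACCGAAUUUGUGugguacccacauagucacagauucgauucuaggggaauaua
Places in the genome outside annotated hairpins were not searched. The counting was per hairpin, so the 5′ and 3′ strands of a gene could not be told apart.

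Counts on the strand of the gene totalled 2839732 in replicate 1 and 2280028 in replicate 2. Levels are counts per 1000000 of these totals (CPM). A single count was worth 0.352 CPM in the replicate 1 library and 0.439 CPM in that of replicate 2. Mature strands of the members are 22 or 23 bases long, so no length correction was made. Whether strands of unlike sequence are read with equal efficiency was not tested. Levels of different genes are therefore set side by side as reads and not as molecules. The neuroendocrine list, which checks for the adrenal medulla, had 4 of 4 genes detected, meaning at least 10 counts in both libraries. It summed to 42775.5 CPM in replicate 1 and 40149.5 CPM in replicate 2, of which Mir375 gave 39421 and 37780 CPM. No miRNA list defines the whole gland. The libraries differed in markers of other cells. Of the 9 skeletal and heart muscle genes, 0 were detected in both libraries. They summed to 953 CPM in replicate 1 and 4.39 CPM in replicate 2, with Mir133a-1, Mir133a-2 and Mir133b at 0 in both. Sequence shared with other hairpins was not searched for the genes of the marker lists. Since reads with several alignments are not counted, a 0 in these lists does not show that a mature strand was absent. The 7 blood cell genes, all detected, summed to 1973 CPM and 15539 CPM, but they did not move together. Mir451a of red blood cells gave 469 and 13557 CPM of these, and Mir223 of myeloid cells, higher in replicate 1, gave 133 and 17.5 CPM. The median log2 ratio of the 7, replicate 1 over replicate 2, was -0.02. In bulk tissue, fewer cells of a type and less RNA per cell cannot be told apart.

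The members differed widely in level, and the miR-10 genes held nearly all of their counts. Together the 6 genes held 5.10% of gene counts in replicate 1 (Clopper-Pearson 95% interval 5.08 to 5.13) and 5.59% in replicate 2 (5.56 to 5.62), or 5.35% ± 0.344 (SD, n = 2). All 6 were detected. Intervals here and below cover counting error only, since reads without molecular identifiers are not independent molecules.

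Mir10a, a gene of the Hoxb cluster, had 95944 counts in replicate 1 and 88602 in replicate 2, which were 33786 and 38860 CPM. Its mean was 36323 ± 3588 CPM (SD, n = 2), the highest of the members in both libraries. It made up 66.2% of the members' counts in replicate 1 and 69.5% in replicate 2. Mir10b, its counterpart in the Hoxd cluster, had 39915 and 31705 counts. These were 14056 CPM in replicate 1 and 13905.5 CPM in replicate 2, with a mean of 13981 ± 106 CPM, so its libraries lay close together. It made up 27.5% and 24.9% of the members' counts.

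The ratio of Mir10a to Mir10b within a library does not depend on scaling. It was 2.40 in replicate 1 (exact 95% interval 2.38 to 2.43) and 2.79 in replicate 2 (2.76 to 2.83), with a mean of 2.60 ± 0.276. Mir10a was the more abundant in both libraries, and the intervals of the libraries did not overlap. As the pair differs by a single base in the mature 5′ strand, a read with an error at that base could be given to the other gene. How many reads were assigned in this way was not tested.

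Mir615, which lies in an intron of Hoxc5, came next in level. It had 7801 counts in replicate 1 and 6325 in replicate 2. Its levels were 2747 and 2774 CPM, with a mean of 2761 ± 19.1 CPM. Mir10b exceeded it by 5.12 in replicate 1 (4.99 to 5.24) and by 5.01 in replicate 2 (4.88 to 5.15), as ratios of counts. Mir615 was well above all 3 miR-196 genes in both libraries. Its count was 6.32 times their sum in replicate 1 (5.95 to 6.71) and 7.93 times in replicate 2 (7.36 to 8.54).

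The miR-196 genes were the lowest of the members. Mir196b of the Hoxa cluster had 741 and 392 counts, which gave 261 and 172 CPM, with a mean of 216 ± 62.9 CPM. Mir196a-2 of the Hoxc cluster had 463 and 377 counts, or 163 and 165 CPM, with a mean of 164 ± 1.63 CPM. Mir196b was thus higher in replicate 1, while Mir196a-2 was at about the same level in both. Mir196b exceeded Mir196a-2 by 1.60 in replicate 1 (1.42 to 1.80) but by 1.04 in replicate 2 (0.900 to 1.20), so these genes could not be ordered beyond the spread.

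Mir196a-1 of the Hoxb cluster was the lowest member, with 31 counts in replicate 1 and 29 in replicate 2. Its level was 10.9 and 12.7 CPM, with a mean of 11.8 ± 1.27 CPM. Mir196a-2 exceeded it by 14.9 in replicate 1 (10.4 to 22.2) and by 13.0 in replicate 2 (8.90 to 19.7). Since the miR-196a genes lose the reads of their shared strand, this ratio and their place below Mir196b hold for assigned reads only.

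**Figure D1:**
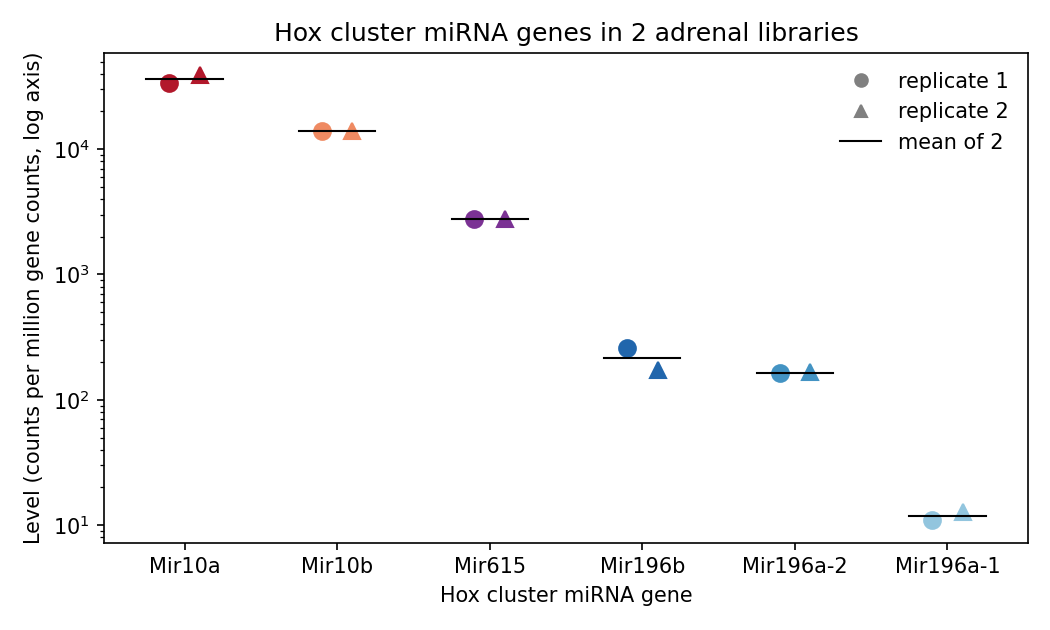
Levels of the 6 Hox cluster miRNA genes in counts per 1000000 gene counts (CPM, log axis), with circles for replicate 1, triangles for replicate 2 and a line for their mean. Mean levels run from 36323 CPM for Mir10a to 11.8 CPM for Mir196a-1, and Mir196b (216 CPM) has the largest relative gap between its libraries.

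Summed by seed, the miR-10 genes had 135859 counts in replicate 1 and 120307 in replicate 2, against 1235 and 798 for the 3 miR-196 genes. The ratio was 110 in replicate 1 (104 to 116) and 151 in replicate 2 (141 to 162), or 130 ± 28.8 (SD, n = 2). Because miR-196a reads that fit both of its genes are missing from the sum, this ratio holds for assigned reads and not for mature miRNAs. Mir196b alone of the 3 shares no run of 18 bases with another annotated hairpin. Mir615 had 10.5 times the Mir196b count in replicate 1 (9.76 to 11.4) and 16.1 times in replicate 2 (14.6 to 17.9). As miR-196b-5p differs from miR-196a-5p by a single base, a miR-196a read with an error there could be given to Mir196b. The number of such reads was not tested.

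The members' positions were compared with their levels (GENCODE M21, mm10). Mir10a (ENSMUSG00000065519.1) is outside every annotated transcript of its strand and ends 1495 bases before the coding sequence of Hoxb4. Mir10b (ENSMUSG00000065500.3) lies in introns of Hoxd3 and Hoxd4 transcripts and ends 1141 bases before the coding sequence of Hoxd4. Both miR-10 genes thus stand just upstream of a Hox4 gene. Mir615 (ENSMUSG00000076010.1, chr15:103014910-103015001, plus strand) lies in the intron between coding parts of Hoxc5, 374 bases after the upstream part and 226 bases before the downstream part.

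The miR-196 genes each stand upstream of a Hox9 gene. Mir196b (ENSMUSG00000065443.1, chr6:52230081-52230165, minus strand) lies 3976 bases before the coding sequence of Hoxa9, and it overlaps exons of 2 Hoxa9 transcripts, a processed transcript and a retained intron. Mir196a-1 (ENSMUSG00000065546.1) is also outside annotated transcripts of its strand and lies 6276 bases before the coding sequence of Hoxb9. Mir196a-2 (ENSMUSG00000065488.2) lies in an intron of a long Hoxc5 transcript, 8218 bases before the coding sequence of Hoxc9.

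Along the direction of Hox transcription, which runs from posterior to anterior genes, the 3 miR-196 hairpins began at 29.2% (Mir196b), 40.7% (Mir196a-1) and 45.1% (Mir196a-2) of their cluster's length. Mir10b began at 59.6%, Mir10a at 70.6% and Mir615 at 81.0%. By assigned reads, the 3 members of higher level were therefore those in the anterior part of their clusters. Mir196a-1 and Mir196a-2 lack the reads of their shared strand, so their place in this order is not settled by these counts. The order is a description of 6 hairpins, some of which share a seed or a cluster.

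**Figure D2:**
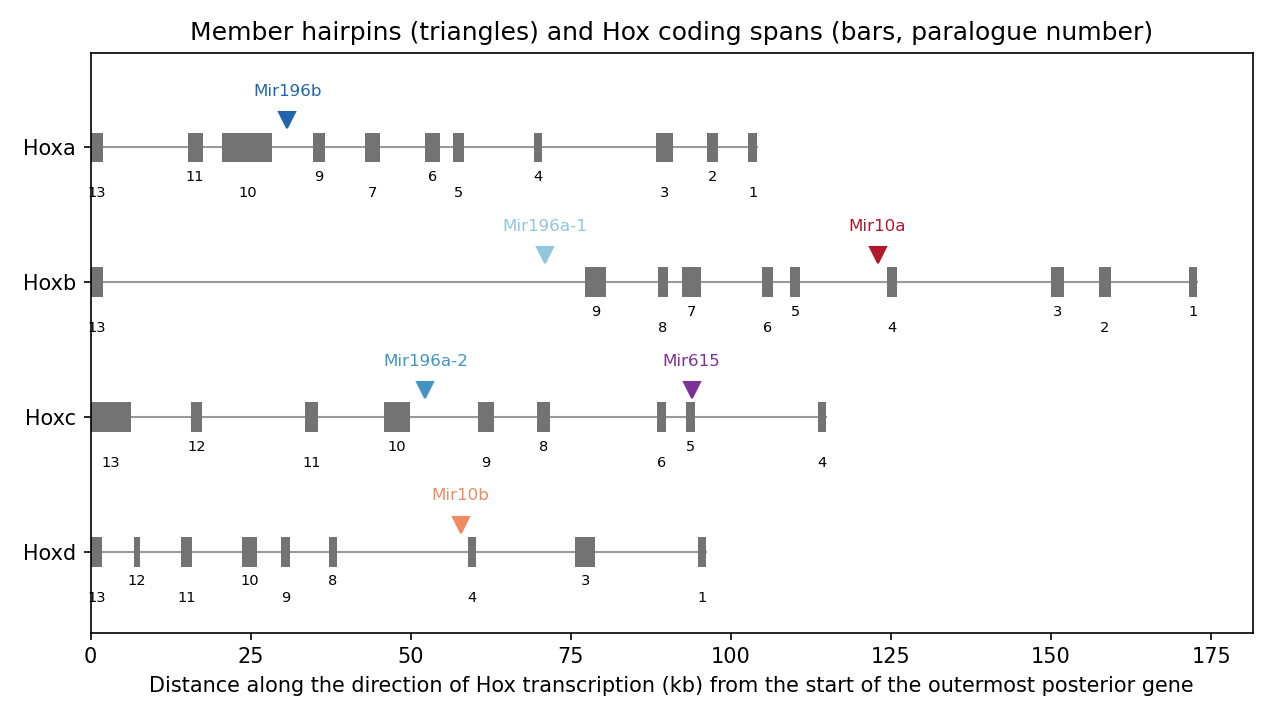
Map to scale of the 4 Hox clusters along the direction of Hox transcription (distance in kb from the start of the outermost posterior gene), with bars for the coding spans of the Hox genes, numbered by paralogue, and triangles for the member hairpins. Mir10a and Mir10b stand just before Hoxb4 and Hoxd4, Mir615 within Hoxc5, and the miR-196 genes before Hoxa9, Hoxb9 and Hoxc9.

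By cluster, the Hoxb hairpins Mir10a and Mir196a-1 held 66.2% of the members' counts in replicate 1 and 69.6% in replicate 2. Mir10b, the Hoxd hairpin, held 27.5% and 24.9%, and the Hoxc pair held 5.70% and 5.26%. The Hoxa hairpin Mir196b held 0.511% in replicate 1 and 0.308% in replicate 2. Neighbours within a cluster differed in level. Mir10a had 3095 times the counts of Mir196a-1 in replicate 1 (2180.3 to 4555) and 3055 times in replicate 2 (2127 to 4562). In Hoxc, Mir615 exceeded Mir196a-2 by 16.8 in both replicate 1 (15.3 to 18.5) and replicate 2 (15.1 to 18.7). Reads of mature miR-196a are missing from the lower gene of each pair.

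The annotation holds 1 further miRNA gene in these clusters, Gm44463 (ENSMUSG00000104570.1, chr2:74701006-74701142, minus strand), on the strand opposite to the Hoxd genes. It had 0 counts in both libraries, which allows up to 3 counts, or 1.06 CPM in replicate 1 and 1.32 CPM in replicate 2. No member had a count on the opposite strand. The counts taken without regard to strand equalled the counts on the gene's strand for all 6, and no transcript is annotated on the other strand at any of them.

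Among all genes of the tables ordered by mean level, Mir10a was at place 9, Mir10b at 18 and Mir615 at 48. Mir196b was at place 150, Mir196a-2 at 164 and Mir196a-1 at 299. Mir10a stood above 97.4% of the 342 detected genes, Mir615 above 86.0% and Mir196a-1 above 13.7%. These places and percentages hold for assigned reads only. Genes that share a mature strand lose the reads that fit several places, and how many was not tested. Mir10a, Mir10b and Mir615 share no run of 18 bases with another annotated hairpin. Their places may therefore be raised by the way reads were counted. The genes directly above Mir10a in mean level were Mir375 (38600.4 ± 1160 CPM) and Mirlet7d (37259 ± 6276 CPM). Those directly below were Mir22 (31128 ± 26993 CPM) and Mir23b (29891 ± 4629 CPM). None of these 4 neighbours differed from Mir10a by more than the summed SDs.

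Mir10b had Mir26b (15797 ± 3251 CPM) and Mir652 (15114 ± 3985 CPM) above it. Below it stood Mir744 (11611 ± 79.6 CPM) and Mirlet7e (11532 ± 1870 CPM). Both Mir744 and Mirlet7e differed from Mir10b by more than the summed SDs, while Mir26b and Mir652 did not. In mean log2 CPM, Mirlet7d lay 0.03 above Mir10a, and Mir652 lay 0.09 above Mir10b, the nearest of these neighbours. With 2 libraries of 1 group there is no pattern across conditions in which genes could be compared.

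**Figure D3:**
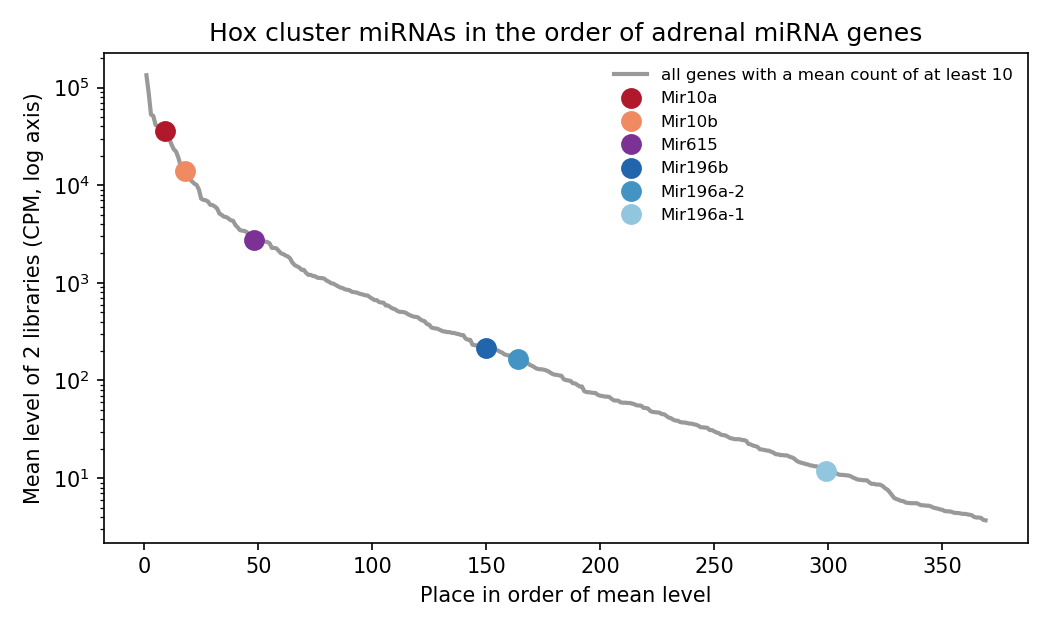
Mean level of the 2 libraries (CPM, log axis) against place in the order of mean level, for genes whose mean count reached 10 (grey line) and the 6 members (points). By assigned reads, Mir10a, Mir10b and Mir615 lie at places 9, 18 and 48, and the miR-196 genes at 150, 164 and 299.

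The libraries were then compared with each other. None of the 6 members differed between the libraries by the rule of an adjusted p under 0.05 and at least 2-fold, against 18.7% of the 369 genes tested (10% higher in replicate 1 and 8.67% higher in replicate 2). The test was an exact two-sided binomial test that took the library totals as given. Its p was adjusted by Benjamini-Hochberg over the genes whose mean count reached 10, and it compares these libraries, not conditions. At an adjusted p under 0.05 alone, 2 of 6 members passed, against 62.6% of all genes tested, and the same 2 had an unadjusted p under 0.05. These were Mir10a and Mir196b. An exact test over 2 samples cannot go below p = 0.5 and was not run.

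Mir10a was lower in replicate 1, at 0.869 of its replicate 2 level (0.862 to 0.877, exact binomial test, adjusted p = 1.58e-196). This direction was the same under each of the scalings tried. Mir196b was higher in replicate 1 by 1.52 (1.34 to 1.72, exact binomial test, adjusted p = 3.68e-11), also under each scaling. Mir10b had a ratio of 1.01 (0.996 to 1.03), Mir615 of 0.990 (0.958 to 1.02) and Mir196a-2 of 0.986 (0.859 to 1.13), and the direction of these 3 depended on the setting. Mir196a-1 had a ratio of 0.858 with a wide interval of 0.5004 to 1.48, set by its low counts. At that depth a difference of up to nearly 2-fold was not detectable.

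Over the 6 members the log2 ratio, replicate 1 over replicate 2, had a median of -0.02, against -0.07 over all genes tested. The median size of the log2 ratio was 0.11 over the members and 0.45 over all genes tested. Among the 81 genes with a mean of at least 1000 CPM, it was 0.32, and 6 of them passed the rule. Beside Mir196b, the 6 genes of the list drawn up for kidney summed to 1286 and 658 CPM. Of these, 4 were detected in both libraries, and none was at 0 in both. Mir203 held most of the sum, at 1166 and 554 CPM, and was the only gene of the 5 tested from this list that passed the rule. The gap in the sum is thus mainly that of Mir203 and is no measure of kidney tissue. Mir192 had 31.3 and 30.7 CPM, Mir194-2 had 40.5 and 37.3 CPM, and Mir204 had 42.3 and 32.0 CPM. Beside Mir10a, the endothelial gene Mir126a had 43203 and 59463 CPM. The 5 smooth muscle and fibroblast genes summed to 23167 and 25516 CPM, with 4 detected and Mir199a-1 at 0 in both. The 4 fat genes, all detected, summed to 1187 and 1666 CPM. The part of these cells, of muscle and of blood in the ratios of Mir10a and Mir196b was not tested.

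**Figure D4:**
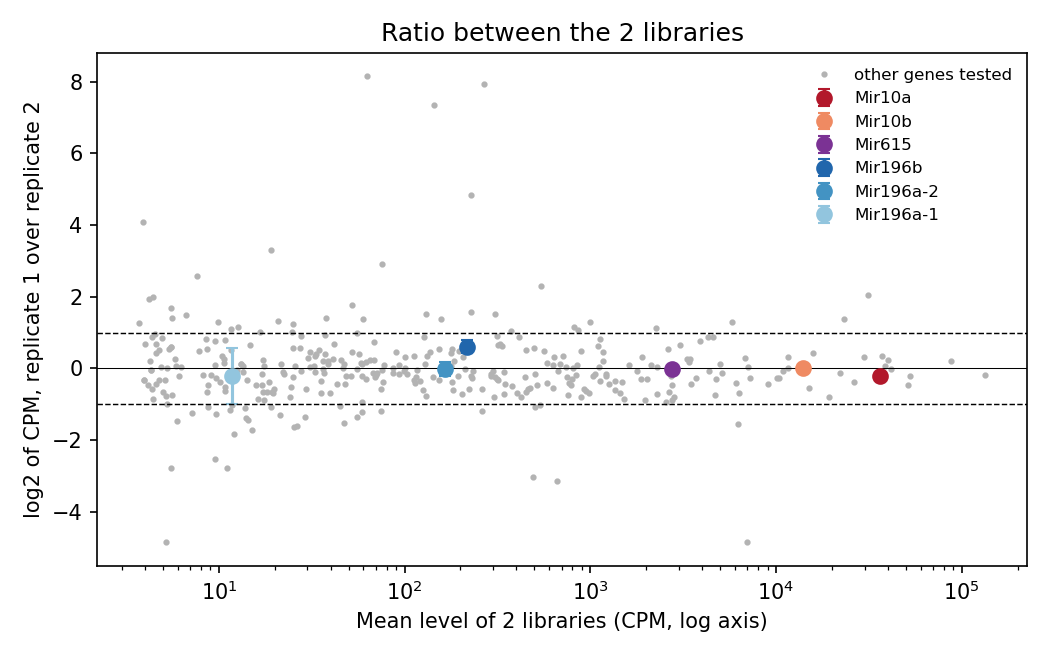
Log2 of CPM in replicate 1 over replicate 2 against the mean level (CPM, log axis), for the members with exact 95% intervals (coloured) and the other genes tested (grey). All 6 members lie between the dashed lines at 2-fold, with Mir196b highest at a log2 ratio of 0.60. A gene with 0 counts in replicate 2 has no finite ratio and is not drawn.

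The miR-10 genes were compared with the 3 genes of the miR-99/100 group, often placed in the same family. Their mature 5′ strands are shown because they share the body of the miR-10 strand and not its seed.
miR-99a-5p: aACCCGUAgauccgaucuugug
miR-99b-5p: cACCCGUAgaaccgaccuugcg
miR-100-5p: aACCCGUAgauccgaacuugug
The longest run that miR-10a-5p and miR-100-5p had in common was 11 bases, GUAGAUCCGAA, at positions 7 to 17 of miR-10a-5p and 6 to 16 of miR-100-5p. The seed of the miR-99/100 group is ACCCGUA. Between miR-10a-5p and miR-99a-5p, and between miR-10b-5p and miR-99b-5p, the longest run was 10 bases.

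Mir99a had 10612 CPM in replicate 1 and 11245.5 CPM in replicate 2, Mir99b 3203 and 9292 CPM, and Mir100 1662 and 1561 CPM. Of these 3 genes, Mir99b passed the rule, with a ratio of replicate 1 over replicate 2 of 0.345 (0.336 to 0.353). The median log2 ratio of the 3 was -0.08. The miR-10 genes had 3.09 times the summed counts of the miR-99/100 genes in replicate 1 (3.06 to 3.12) and 2.39 times in replicate 2 (2.36 to 2.41). The part of Mir99b in the difference between these ratios was not tested.

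The miR-196 strand overlaps that of let-7, whose genes regulate differentiation. The seed AGGUAGU of miR-196a-5p is found in let-7b-5p at positions 3 to 9, so it is offset by a single base from the let-7 seed, shown in capitals.
let-7b-5p: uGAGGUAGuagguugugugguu
In sum the 3 miR-196 genes had 435 and 350 CPM, against 329387 and 319380 CPM for the 12 let-7 genes. All 12 let-7 genes were detected, and none passed the rule, with a median log2 ratio of 0.27. Several let-7 genes also share mature strands, so this sum likewise covers assigned reads only.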

How the data were processed

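The authors deposited raw read counts per miRNA hairpin gene for each of 2 samples, not normalized, in 3 columns, which hold unstranded counts, counts on the strand of the gene and counts on the other strand. Per the labels and the deposited sample notes, reads were placed on mm10 with GENCODE M21 genes. The aligner and counter are not given in the sources used here. The 4 leading rows that name no gene stayed out of totals and tests. They were unmapped reads (29.8% of reads in replicate 1, 39.7% in replicate 2), reads aligned to several places (28.8% and 25.3%), reads outside genes (10.8% and 8.60%) and ambiguous reads (8.62e-05% and 0%).

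Identifiers were matched to GENCODE M21, and sequences taken from RefSeq (GRCm38.p6). The gene-strand column, the larger single-strand total, was scaled to 1000000 per library. Ratios carry exact 95% intervals. The library comparison was an exact two-sided binomial test (SciPy 1.17.1) with Benjamini-Hochberg adjustment over 369 genes whose mean count reached 10. Its code was tried on simulated counts that held counting error alone, as the test assumes. That trial does not show how the test behaves on these libraries. With 1 group no edgeR test could be run. Alternatives used edgeR 4.0.16 (TMM) and DESeq2 1.42.0 size factors. Shared sequence was searched among annotated hairpins. Named genes were the members, other miRNA genes in the clusters, the miR-99/100 genes, the 2 genes on each side of Mir10a and Mir10b in mean level, and marker lists by their sums. Genes named from marker lists beyond those at 0 were chosen after their values were seen. The members and lists were chosen with earlier results of these data known. Variants of the hybrid strain were not analysed here.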

Additional observations from a re-analysis of the deposited data

Results flagged for a closer look

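Many reads fell in data that no gene count uses. Those with several alignments came to 2673681 for replicate 1 (28.8% of its reads), and to 2193599 for replicate 2 (25.3%). Any reads of mature miR-196a that fit both of its hairpins would be among them, and how many those were was not tested.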

How the results depend on the processing

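Counting without regard to strand left every member's count as it was but lowered the totals. The levels became 42258 CPM for Mir10a, 16241.5 for Mir10b, 3208 for Mir615, 191 for Mir196a-2 and 13.8 for Mir196a-1, and the members' share 6.22%. With all reads in the total, the levels were 10286 CPM for Mir10a, 3982 for Mir10b, 786 for Mir615, 62.6 for Mir196b, 46.7 for Mir196a-2 and 3.35 for Mir196a-1, and the share 1.52%. Without the muscle and blood lists in the total, Mir10b was at 14111 CPM and Mir615 at 2787 CPM. TMM and DESeq2 scaling moved no level by more than its SD. In log2 ratio of replicate 1 over replicate 2, Mir10b turned to -0.040 without regard to strand and to -0.0029 without the muscle and blood lists. Mir615 turned to 0.080 with TMM and 0.060 with DESeq2 scaling, and Mir196a-2 to 0.073 and 0.054. Each member's counts were the same in all of these settings, and only the totals or size factors that divide them changed. Why the scalings differed was not tested. No member passed the rule in any of the 6 other settings run, and with TMM scaling, DESeq2 scaling or counts without regard to strand 4 of 6 had an adjusted p under 0.05. With a mean count of at least 100, 33 of 234 genes passed, 21 higher in replicate 1 and 12 higher in replicate 2. As reported, 69 of 369 passed, 37 and 32 by direction. Of the genes that passed, 63.6% were higher in replicate 1 at this filter, against 53.6% as reported. Why they differed was not tested. Mir196a-1 was not among the 234 genes. In all, 81 alternatives kept their side or stayed within the spread, 18 moved and 6 reversed. Part of the 81 could not have come out otherwise. A value from a single library always lies within the SD of the 2 libraries. Ratios within a library use the same counts with or without regard to strand. A change of the count filter leaves a member's log2 ratio as it was. With a single library left, the Mir10a to Mir10b ratio was 2.40 to 2.79, the miR-10 to miR-196 ratio 110 to 151 and the share 5.10% to 5.59%. No paired analysis was possible because the labels give 1 group. Depth limits Mir196a-1, at 31 and 29 counts.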
